A study of Rattus norvegicus with 10 samples.

Results

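The genes described here are the splicing factors and related RNA-binding regulators of rat oligodendrocyte (OL) lineage cells. The rule uses symbols: every gene of the deposited miR-145 comparison table whose symbol begins with the stem of an hnRNP, SR, SF3a, SF3b, snRNP, CELF, MBNL, RBFOX or PTBP gene, or is that of Qki. It found 64 of the 16129 genes in that table, under 63 symbols, because Snrpg stands on 2 gene IDs. They comprise 16 hnRNP proteins, 11 SR proteins, 9 subunits of SF3a and SF3b, 14 Sm and other snRNP proteins, and 14 CELF, MBNL, RBFOX and PTBP regulators. The rule holds no expression value, although the gene group was picked with earlier results of these data known, and the same 64 genes passed the filter on low counts in every comparison. That table itself lists only genes above a low count limit set by the authors over all libraries.

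Pre-mRNA splicing removes introns through the spliceosome, whose small nuclear ribonucleoproteins (snRNPs) are built on a ring of Sm proteins and whose SF3a and SF3b complexes help the U2 snRNP to hold the branch point. SR proteins mostly favour the use of nearby exons, hnRNP proteins often oppose it and also package, stabilise and transport mRNA, and CELF, MBNL, RBFOX, PTBP and QKI proteins switch sets of exons between tissues and stages. In OLs, RNA-binding proteins are known for the transport of Mbp mRNA into processes and, through Qki, for myelin itself.

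RNA was sequenced from primary cultures of Sprague-Dawley rat cortex taken on postnatal days 1 to 3, with 2 libraries in each of 5 groups. OLs were collected 5 days after transfection with a miR-145-5p mimic, with miR-145-5p and miR-219 mimics together, or with a scrambled mimic (miR-ctl). Oligodendrocyte progenitor cells (OPCs) were collected 24 h after transfection with an inhibitor of miR-145-5p (anti-miR-145) or a scrambled inhibitor (anti-miR-ctl). Every group carried an oligonucleotide at 30 nM, no group was left untransfected, and OPCs grew with FGF2 and PDGFAA whereas OLs grew with T3 and CNTF. A treatment tag on the 2 miR-145 libraries also names miR-219, although the titles give only miR-145, which was taken as their treatment. The methods on RNAseq mention lentiviral transduction, while the sample protocol describes mimics. The study's own results also state that mimics were used for the RNAseq of miR-145 against miR-ctl. The study's reporting notes describe each replicate of a primary culture as cells from 1 mouse. The study cultured cells of mouse and of rat, and the notes do not say what a replicate of the rat cultures was. Whether same-numbered libraries of different groups came from 1 culture is not stated.

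Both miRNAs are shown because their seeds, bases 2 to 8 and printed in capitals, guide which transcripts each mimic addresses. The inhibitor addresses miR-145-5p itself. The 2 seeds differ. The sequences are RefSeq's for build GRCr8, where miR-145-5p lies at chr18:57370033-57370055 and miR-219a-5p at chr3:33516561-33516581, both on the minus strand. The labels write miR-219 without an arm, so miR-219a-5p is the RefSeq entry taken for it here. Target sites in the transcripts of the splicing genes were not analysed here.
rno-miR-145-5p: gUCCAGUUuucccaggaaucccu
rno-miR-219a-5p: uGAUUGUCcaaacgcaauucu

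Library totals ran from 33505668 to 42684176 estimated counts. Levels are given as CPM, the counts of a gene scaled to a common library total, after TMM normalisation over the 10 libraries, and levels of different genes are not compared, because CPM is not corrected for transcript length. Of the 64 genes, 58 had at least 100 counts in every library, and only Celf4, Celf5, Celf6, Rbfox1, Rbfox3 and Srsf12 fell below that. The cell labels were checked against marker genes. Mbp, which encodes myelin basic protein, stood between 6215 and 15530 CPM in OL libraries and between 234 and 279 in OPC libraries. Summed over 7 OPC markers, OPC libraries held 3823 to 4979 CPM and OL libraries 1496 to 2217. In control OLs against control OPCs, 6 of the 7 were lower and 1, Gpr17, was higher. Gpr17 stood between 183 and 375 CPM in OL libraries and between 21.4 and 33.1 in OPC libraries. Other cells left RNA in these cultures as well. The 8 astrocyte markers summed to between 5864 and 14410 CPM in OL libraries and between 478 and 784 in OPC libraries. The 12 microglia markers summed to between 352 and 991 CPM in OL libraries and between 984 and 1461 in OPC libraries. The 5 fibroblast and mural markers reached at most 42.4 CPM and the 4 endothelial markers at most 27.2 CPM in any library.

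The splicing genes separated OLs from OPCs whatever oligonucleotide the cells had received. For 54 of the 64 genes every OL library lay below every OPC library, against 25.4% of the 15721 genes tested. Only Mbnl2 lay above in every OL library, against 26.5% of all genes. The remaining 9 genes overlapped, namely Celf2, Ptbp3, Hnrnph2, Sf3a1, Sf3b1, Sf3b5, Sf3b6, Snrpd1 and Srsf5. Summed CPM over the 64 genes was 12130 and 12820 in the OPC anti-miR-ctl libraries and 12750 and 12570 in the OPC anti-miR-145 libraries. It was 8724 and 8202 in the OL miR-ctl libraries, 7528 and 7339 in the OL miR-145 libraries, and 7847 and 7670 in the OL miR-145+miR-219 libraries.

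**Figure D1:**
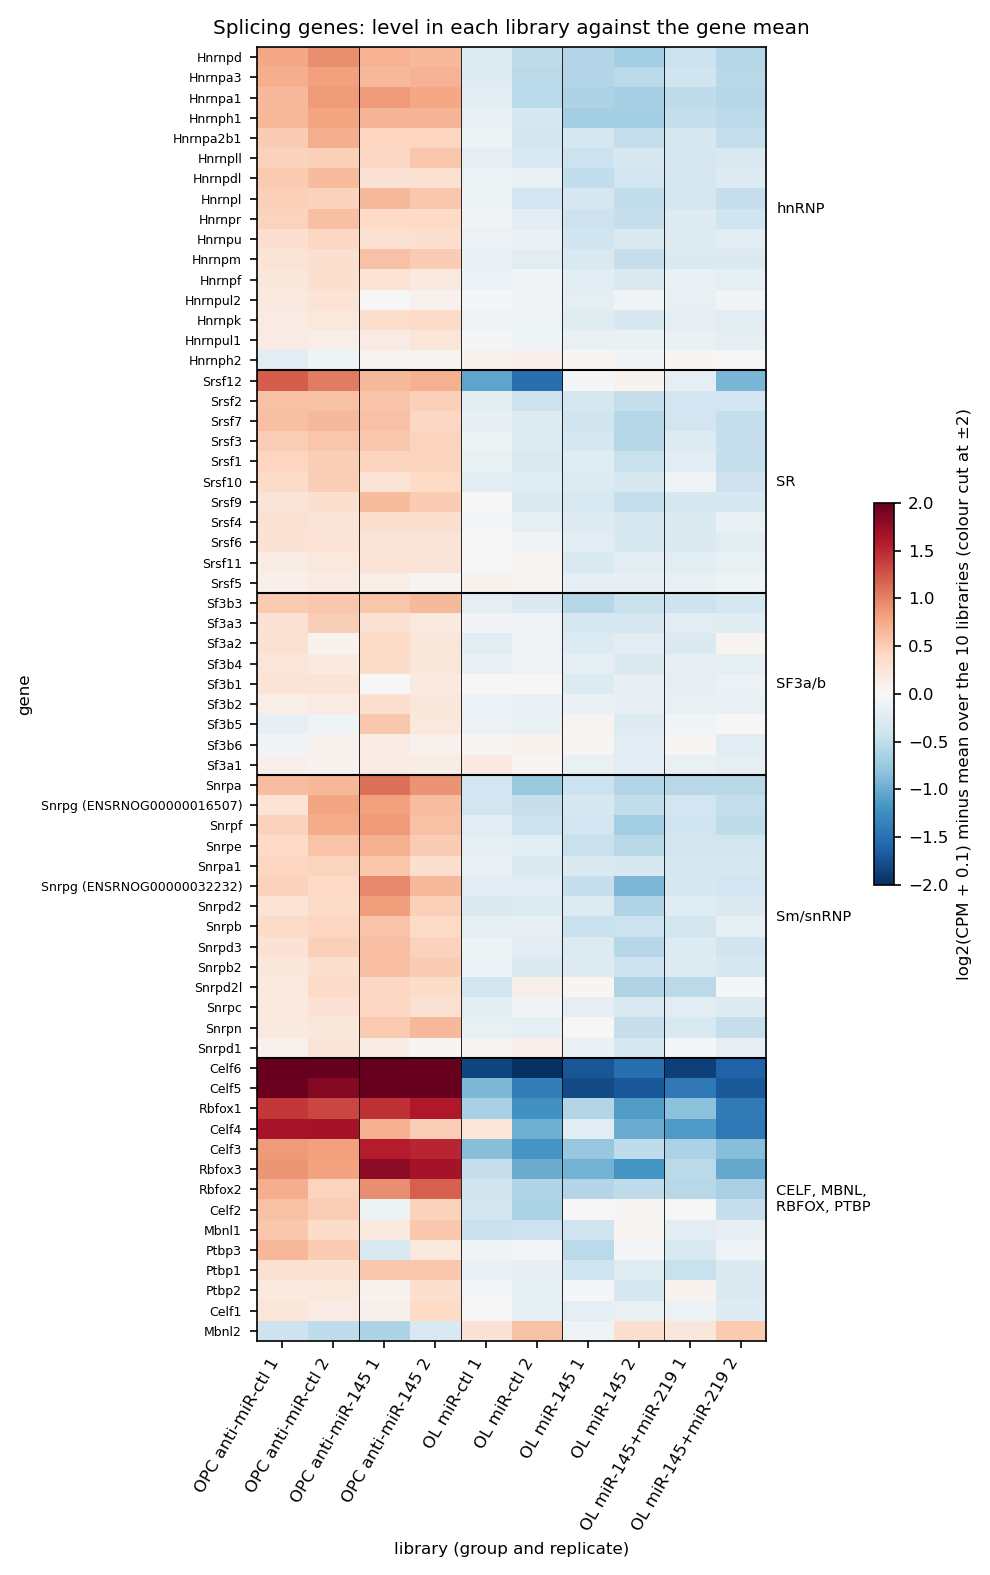
Level of each of the 64 splicing genes (rows, grouped by family) in each of the 10 libraries (columns), as log2(CPM + 0.1) minus the gene's mean over the libraries, with red above and blue below that mean. The 4 OPC columns are red and the 6 OL columns blue for most rows, Mbnl2 shows the opposite, and the strongest contrasts are in the CELF and RBFOX rows.

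Control OLs were compared with control OPCs first, since this asks how the splicing genes differ between the 2 cell stages. Of the 64 genes, 54 were lower and 1 was higher in OLs at a Benjamini-Hochberg adjusted p under 0.05 (edgeR's quasi-likelihood test), where 28.7% of all 15721 genes tested were called lower and 28.8% higher. The median log2 fold change was -0.64 over the 64 genes and 0.01 over all genes. Their summed level fell by 32.2%, from a mean of 12480 to 8463 CPM. By family, 14 of 16 hnRNP genes, 9 of 11 SR genes, 6 of 9 SF3a and SF3b genes, 12 of 14 Sm and other snRNP genes, and 13 of 14 CELF, MBNL, RBFOX and PTBP genes fell. In bulk RNA, fewer cells that express a gene and less of its RNA per cell cannot be told apart. Cell stage, culture medium, the control oligonucleotide and the time since transfection all differ between these groups and cannot be told apart either.

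**Figure D2:**
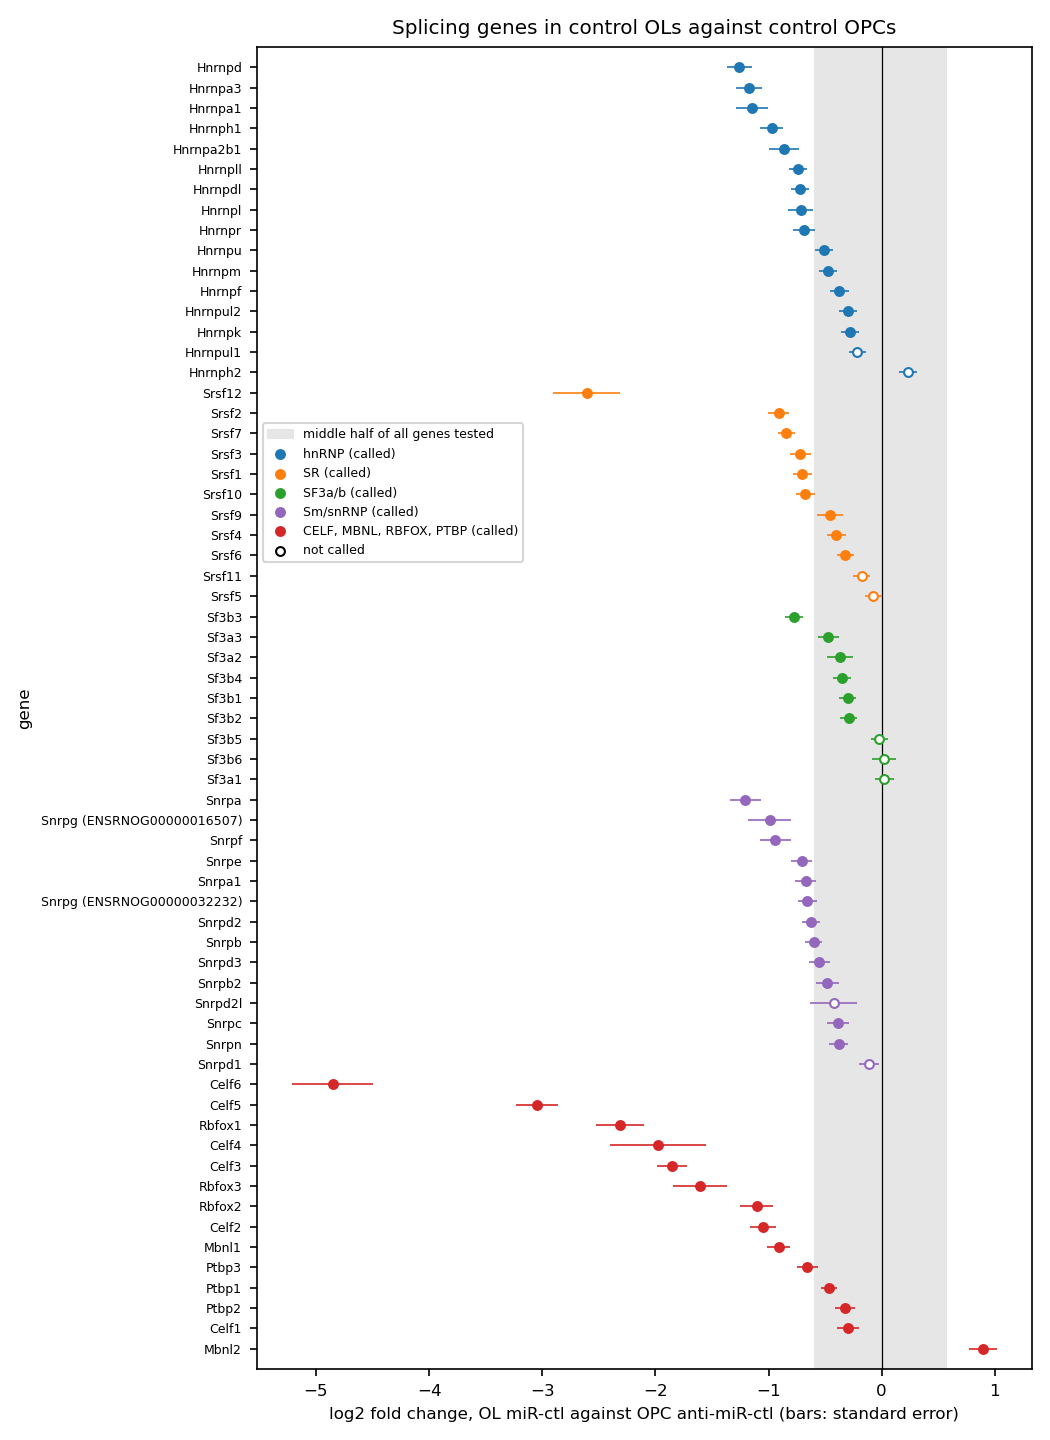
Log2 fold change of each splicing gene in OL miR-ctl against OPC anti-miR-ctl (x axis, bars are standard errors), coloured by family, with filled points for genes called at an adjusted p under 0.05 and the grey band running between the quartiles of all genes tested. Nearly every point lies left of 0, Celf6 at -4.85 and Celf5 at -3.05 lie farthest left, and Mbnl2 at 0.89 is the one filled point on the right.

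The CELF, MBNL, RBFOX and PTBP regulators had the widest spread of any of the 5 families, with a median log2 fold change of -1.08. Celf5, one of the CELF proteins found mainly in the nervous system (ENSRNOG00000004695), had 35.6 and 32.5 CPM in the OPC anti-miR-ctl libraries. It had 4.84 and 3.43 CPM in the OL miR-ctl libraries, so the groups lay far apart. The difference was 8.26-fold, a log2 fold change of -3.05 ± 0.19 (SE, adjusted p = 0.00019). Celf6, of the same subgroup, had 4.48 and 4.32 CPM in control OPCs and 0.201 and 0.092 CPM in control OLs. These OL levels rest on 8 and 3 counts, so the log2 fold change of -4.85 ± 0.36 (adjusted p = 0.000346) is imprecise in size. Celf3, also mostly neural, had 45.8 and 44.4 CPM in control OPCs and 14.0 and 11.1 CPM in control OLs, a 3.62-fold difference (log2 -1.86 ± 0.13, adjusted p = 0.000305). Celf4 went from 4.27 and 4.32 CPM to 1.56 and 0.613 CPM (log2 -1.98 ± 0.43, adjusted p = 0.0125), and its OL levels rest on 62 and 20 counts. It was no longer called when either OPC anti-miR-ctl library was left out, while its log2 fold change was -1.99 and -1.98.

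Celf2 and Celf1, which are expressed far beyond the nervous system, changed less. Celf2 had 66.3 and 61.8 CPM in control OPCs and 34.0 and 28.4 CPM in control OLs (log2 -1.05 ± 0.11, adjusted p = 0.00119). Celf1 had 133 and 126 CPM in control OPCs and 114 and 98.6 CPM in control OLs (log2 -0.30 ± 0.10, adjusted p = 0.0458). Celf1 was near the limit, and its call was lost without either OPC anti-miR-ctl library, with log2 fold changes of -0.26 and -0.34.

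The RBFOX proteins bind the element UGCAUG in introns beside regulated exons, and all 3 genes fell. Rbfox1 had 17.3 and 16.4 CPM in control OPCs and 4.07 and 2.73 CPM in control OLs, a 4.97-fold difference (log2 -2.31 ± 0.21, adjusted p = 0.00069). Rbfox3, which encodes the neuronal antigen NeuN, had 5.66 and 5.36 CPM in control OPCs and 2.16 and 1.47 CPM in control OLs (log2 -1.61 ± 0.24, adjusted p = 0.0037). Rbfox2, the broadly expressed member, had 26.1 and 21.5 CPM in control OPCs and 11.9 and 10.4 CPM in control OLs (log2 -1.10 ± 0.15, adjusted p = 0.00231). Markers of neurons moved in the same direction as these genes. Of 9 neuron markers that could be tested, 6 were lower and 1, Tubb3, was higher in control OLs, and their summed level was 626 to 654 CPM in control OPCs and 391 to 512 CPM in control OLs. No neuron marker of the 9 was at 0 in all libraries, and the part of neuronal RNA in these differences was not tested.

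MBNL proteins move exons from fetal to adult patterns in several tissues, and the 2 measured genes went opposite ways. Mbnl1 had 36.8 and 32.7 CPM in control OPCs and 18.6 and 18.8 CPM in control OLs (log2 -0.91 ± 0.10, adjusted p = 0.00131). Mbnl2 (ENSRNOG00000010737) had 63.4 and 59.4 CPM in control OPCs and 103 and 127 CPM in control OLs, a 1.86-fold rise (log2 0.89 ± 0.12, adjusted p = 0.0027). It was the sole gene of the 64 that rose at the threshold.

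PTBP proteins bind pyrimidine-rich tracts and repress exons, Ptbp1 in most cells and Ptbp2 mainly in neurons. Ptbp1 had 233 and 234 CPM in control OPCs and 172 and 169 CPM in control OLs (log2 -0.47 ± 0.07, adjusted p = 0.0039). Ptbp2 had 56.5 and 57.0 CPM in control OPCs and 48.3 and 43.1 CPM in control OLs (log2 -0.33 ± 0.09, adjusted p = 0.0272). Ptbp3 had 54.8 and 49.4 CPM in control OPCs and 32.9 and 33.8 CPM in control OLs (log2 -0.66 ± 0.09, adjusted p = 0.00275). Without either OPC anti-miR-ctl library the calls of Ptbp1 and Ptbp2 ended, while their log2 fold changes stayed at -0.47 for Ptbp1 and -0.33 for Ptbp2. Set against the OPC anti-miR-145 libraries instead, Ptbp3 differed by a log2 of only -0.01 (adjusted p = 0.97), because it was also low in OPCs given the inhibitor. Ptbp2 (log2 -0.30, adjusted p = 0.109), Celf1 (-0.33, adjusted p = 0.0935) and Celf4 (-0.87, adjusted p = 0.152) also lost their edgeR calls against that reference.

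Qki, whose loss of expression causes the myelin defect of the quaking mouse, is no member by symbol, since the deposited table lists its gene ID ENSRNOG00000048297 under a provisional symbol. It was looked up by ID because of its place in this family, and RefSeq pairs that ID's entry with Qki. It had 262 and 243 CPM in control OPCs and 547 and 519 CPM in control OLs (log2 1.06 ± 0.08, adjusted p = 0.000424). Qki and Mbnl2 were thus both higher in control OLs.

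**Figure D3:**
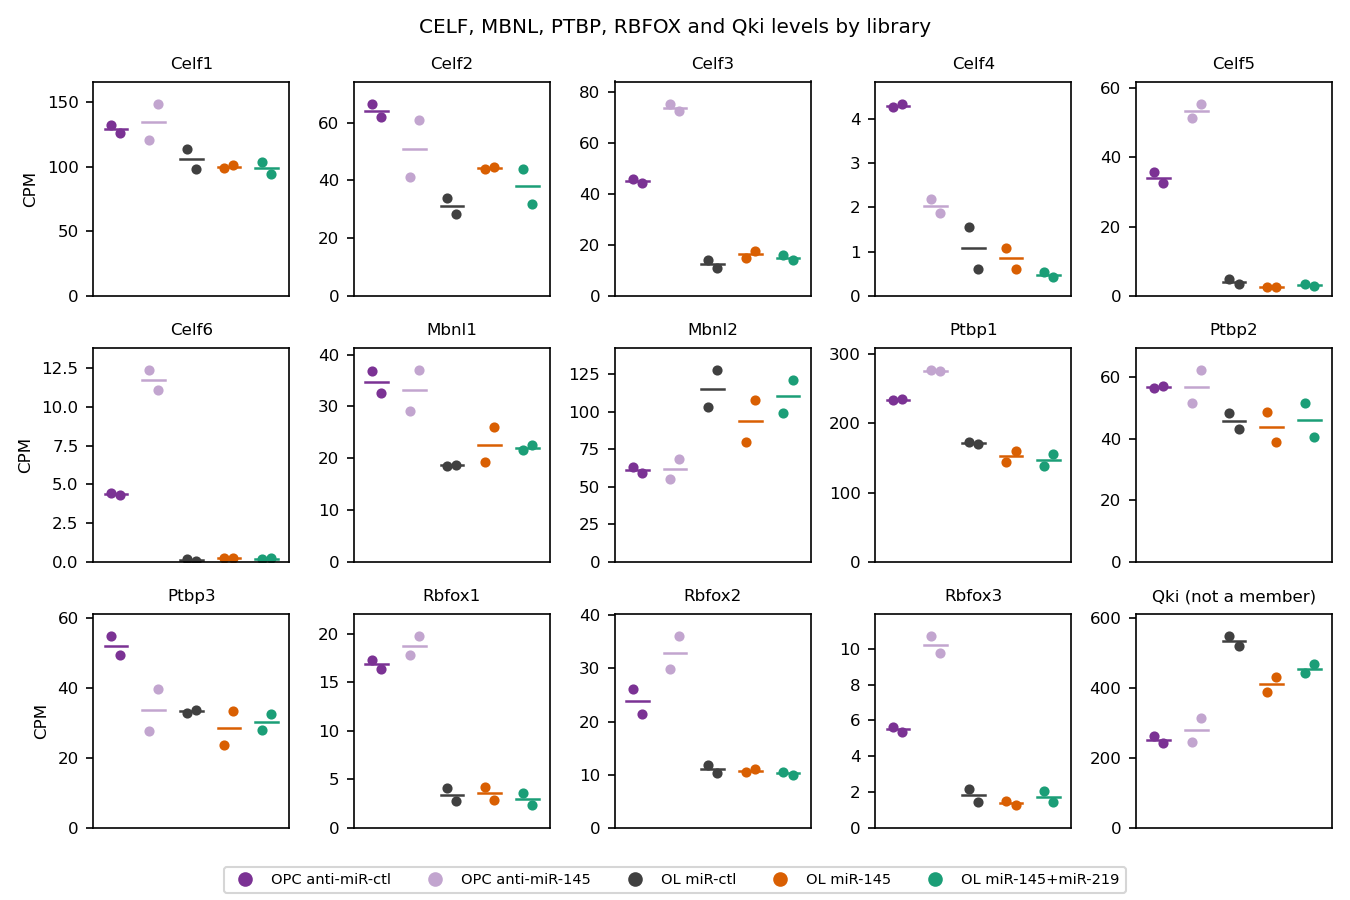
CPM of the 14 CELF, MBNL, PTBP and RBFOX genes and of Qki in each library (points, with a line at the mean of the 2 libraries of a group), each panel on its own linear axis from 0. Celf3, Celf5, Celf6, Rbfox2 and Rbfox3 are highest in OPCs given anti-miR-145 and low in all OL groups, whereas Mbnl2 and Qki are higher in the OL groups.

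The hnRNP genes had a median log2 fold change of -0.70, and their summed level fell by 35.5% in control OLs. Hnrnpd, the AU-rich element binding protein AUF1, had 282 and 312 CPM in control OPCs and 135 and 115 CPM in control OLs, a 2.39-fold difference (log2 -1.26 ± 0.11, adjusted p = 0.000607). Hnrnpa3 had 426 and 454 CPM in control OPCs and 216 and 178 CPM in control OLs (log2 -1.17 ± 0.12, adjusted p = 0.000885). Hnrnpa1, which represses many exons, had 1024 and 1177 CPM in control OPCs and 557 and 448 CPM in control OLs (log2 -1.14 ± 0.14, adjusted p = 0.00177). In each of these genes both control OL values lay well below both control OPC values, and OL replicate 1 was the higher of its pair. Hnrnpa2b1, which binds the transport element of Mbp mRNA, had 855 and 999 CPM in control OPCs and 563 and 465 CPM in control OLs (log2 -0.86 ± 0.13, adjusted p = 0.00406). Hnrnph1, which like Hnrnpf binds runs of G, had 345 and 376 CPM in control OPCs and 197 and 174 CPM in control OLs (log2 -0.97 ± 0.10, adjusted p = 0.000959). Hnrnpf itself changed less, from 576 and 612 CPM to 451 and 474 CPM (log2 -0.37 ± 0.08, adjusted p = 0.0135).

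Hnrnpll, Hnrnpdl, Hnrnpl, Hnrnpr, Hnrnpu, Hnrnpm, Hnrnpul2 and Hnrnpk were also called lower, with log2 fold changes from -0.74 to -0.28. The 2 hnRNP genes not called were Hnrnpul1 (log2 -0.21 ± 0.07, adjusted p = 0.0567) and Hnrnph2. Hnrnph2, a close relative of Hnrnph1, had 133 and 147 CPM in control OPCs and 165 and 168 CPM in control OLs (log2 0.23 ± 0.08, adjusted p = 0.0618), so the groups did not overlap but the difference missed the threshold.

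Among SR genes the median log2 fold change was -0.68. Srsf7 had 120 and 124 CPM in control OPCs and 70.7 and 66.4 CPM in control OLs (log2 -0.84 ± 0.08, adjusted p = 0.000653). Srsf2, which acts in both splicing and transcription, had 278 CPM in each control OPC library and 159 and 140 CPM in control OLs (log2 -0.91 ± 0.09, adjusted p = 0.000921). Srsf1, the founding SR protein, had 292 and 303 CPM in control OPCs and 194 and 175 CPM in control OLs (log2 -0.70 ± 0.09, adjusted p = 0.00183). Srsf3 and Srsf10, a splicing repressor when dephosphorylated, gave log2 fold changes of -0.72 and -0.68. Srsf12 had the largest ratio of the family (6.10-fold, log2 -2.61 ± 0.30, adjusted p = 0.00142), but its OL miR-ctl levels rest on 23 and 13 counts against 138 and 102 in the OPC anti-miR-ctl libraries. Srsf4, Srsf6 and Srsf9 fell by between 0.32 and 0.46 on the log2 scale. Srsf5 (log2 -0.07 ± 0.07) and Srsf11 (log2 -0.18 ± 0.07) were not called.

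The 9 SF3a and SF3b genes of the U2 snRNP had the median nearest to 0 of the 5 families, at a log2 fold change of -0.30. Sf3b3 had the largest change among them. It had 177 and 179 CPM in control OPCs and 108 and 101 CPM in control OLs (log2 -0.77 ± 0.08, adjusted p = 0.000851). Sf3b1, the subunit that clasps the branch point helix, had 502 CPM in both control OPC libraries and 410 and 412 CPM in control OLs (log2 -0.30 ± 0.07, adjusted p = 0.0189). Sf3a2, Sf3a3, Sf3b2 and Sf3b4 were called lower with log2 fold changes from -0.47 to -0.29. Sf3a1 (0.02 ± 0.08), Sf3b5 (-0.02 ± 0.08) and Sf3b6 (0.02 ± 0.11) lay within 1 standard error of no difference on the log2 scale.

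Among the snRNP proteins the median log2 fold change was -0.61. Snrpa, a protein specific to the U1 snRNP, had 48.4 and 50.0 CPM in control OPCs and 24.2 and 18.8 CPM in control OLs (log2 -1.21 ± 0.14, adjusted p = 0.00145). Snrpc, also of the U1 snRNP, changed less (log2 -0.39 ± 0.10, adjusted p = 0.0203). Of the genes for the Sm ring, Snrpf (-0.94 ± 0.14), Snrpe (-0.71 ± 0.09), Snrpd2 (-0.62 ± 0.08), Snrpb (-0.60 ± 0.07) and Snrpd3 (-0.55 ± 0.10) were called lower on the log2 scale, as were the U2 snRNP genes Snrpa1 (-0.67 ± 0.09) and Snrpb2 (-0.48 ± 0.10). Both Snrpg IDs were called lower, ENSRNOG00000032232 by a log2 of -0.66 ± 0.08 and ENSRNOG00000016507 by -0.99 ± 0.19, and since they carry 1 symbol their split of reads is uncertain. Snrpd1 (-0.11 ± 0.09, adjusted p = 0.319) overlapped between the groups, and Snrpd2l (-0.42 ± 0.21, adjusted p = 0.136) varied too much for a call. Snrpn, a relative of Snrpb that is most abundant in neurons, had 37.0 and 37.9 CPM in control OPCs and 29.3 and 28.8 CPM in control OLs (log2 -0.38 ± 0.08, adjusted p = 0.0122).

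The splicing machinery outside the 64 genes was mostly below 0 as well. Negative values made up 82.5% of the other core spliceosome genes and 70.0% of the other splicing regulators, against 49.5% of all genes. Over all genes, 28.7% were called lower and 28.8% higher. Of 63 other core spliceosome genes, 28 were called lower and 2 higher, with a median log2 fold change of -0.23, and those with the smallest p included the LSm ring genes Lsm4 (-1.14 ± 0.09), Lsm2 (-1.23 ± 0.10) and Lsm6 (-1.07 ± 0.09). Of 50 other splicing regulators, 20 were called lower and 5 higher (median -0.18). Among them Syncrip (-0.72 ± 0.08), Tial1 (-0.76 ± 0.08) and Tra2b (-0.62 ± 0.07) fell, and the SR protein kinase gene Srpk3 rose from a mean of 0.344 to 8.95 CPM (log2 4.66 ± 0.29, adjusted p = 0.000205). Of 43 other RNA-binding regulators, 15 were called lower and 10 higher (median -0.08). With 55.8% negative, that list lay near the shares over all genes. Whether these lists differ from the 64 genes was not tested.

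Other gene groups fell more steeply between the same libraries. All 16 cell cycle genes were called lower in control OLs (median log2 -3.44), and their summed level was 2548 and 2699 CPM in control OPCs against 382 and 309 CPM in control OLs. All 11 interferon response genes that could be tested were called lower as well, with a median of -7.78. The 8 astrocyte markers went the other way, 7 of them called higher. The part of dividing cells, of the interferon state of control OPCs or of astrocytes in the splicing gene differences was not tested. With the OPC anti-miR-145 libraries as the reference, the interferon genes summed to 230 and 267 CPM in place of 1921 and 1825. Against that reference 47 splicing genes were called, 46 of them lower, beside 7686 genes called in all. The median log2 fold change of the splicing genes was -0.67.

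The count of called genes varied with the library left out and with the size asked for. The median log2 fold change of the splicing genes varied less, between -0.63 and -0.60 with any 1 library left out. A fold change of at least 1.5 left 35 of the 64 genes (34 lower), beside 6725 of the 9042 genes called in all. Scaling by library totals alone moved the median of all genes to -0.12 and that of the splicing genes to -0.77, a distance from all genes close to that with TMM.

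**Figure D4:**
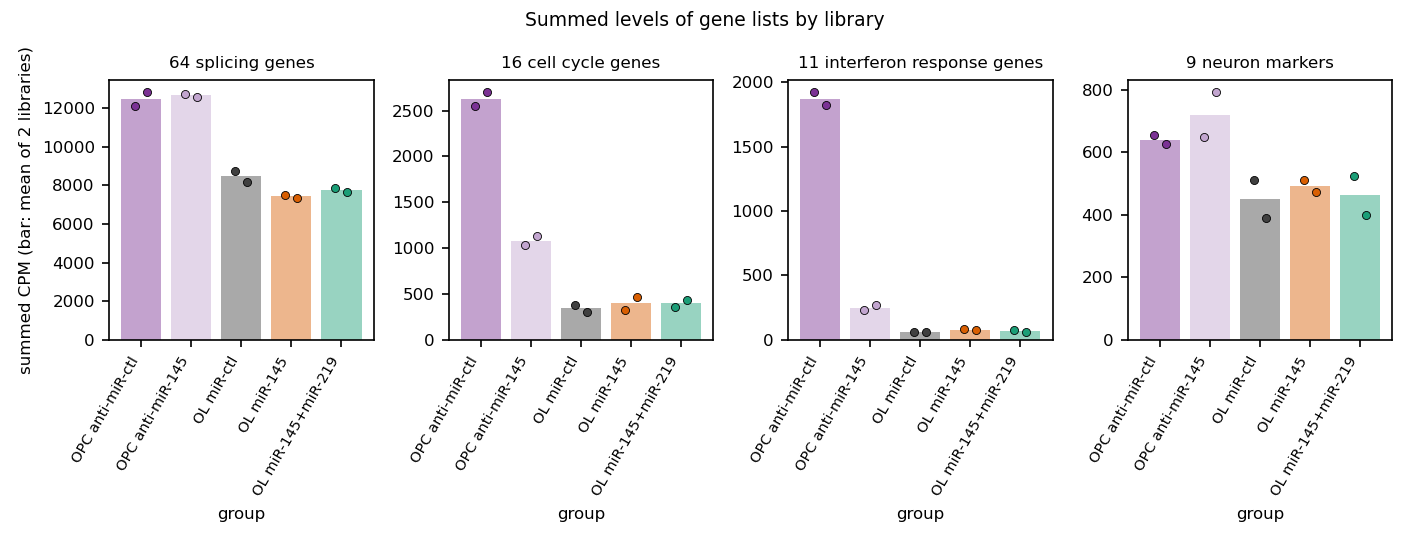
Summed CPM of the 64 splicing genes and of 3 marker lists in each library (points, with bars from 0 at the mean of the 2 libraries of a group). The splicing genes lie between 12130 and 12820 CPM in the OPC libraries and between 7339 and 8724 in the OL libraries, while cell cycle and interferon response genes differ strongly between the 2 OPC groups.

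Promoter sequences were set beside these values because most members of every family were lower in control OLs. RefSeq promoters of build GRCr8, 300 bases each from 250 before to 50 after the start, were matched by symbol for 55 of the 63 symbols. Their median GC content was 61.0% against 51.7% over all 33469 promoters. The GC box GGGCGG, on either strand, stood in 34 of the 55 (61.8% against 33.1% of all promoters). The ETS site CCGGAAG stood in 15 (27.3% against 8.75%), among them 4 of 8 SF3a and SF3b promoters, 4 of 11 SR promoters and 5 of 12 snRNP promoters, but in 0 of 9 promoters of the regulators. The CCAAT box stood in 27 (49.1% against 37.5%), among them 13 of 15 hnRNP promoters. The E-box CACGTG stood in 6 (10.9% against 6.42%), 5 of them of hnRNP genes. The palindrome CTCGCGAG and the NRF1 element GCATGCGC stood in 3 each (5.45% against 0.723% and 2.47%), and TATAAA in 5 (9.09% against 14.2%). Motifs were searched on both strands and may overlap. They are matches of letters, not sites of binding, and CpG-rich promoters hold more of the GC-rich ones. Only the first entry per symbol was kept for the splicing genes, a step not applied to the 33469 promoters. Starts were taken as annotated and were not checked, so some sequences may not be promoters. Hnrnpk, counted among the 13 with a CCAAT box, had only 35.7% GC, and Celf1 had 39.3%.

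A promoter is shown for 4 genes, with motif matches in capitals: Hnrnpa3 for the CCAAT boxes, GC boxes and E-box of the hnRNP family, Srsf7 for a GC box that overlaps an ETS site and an NRF1 element, Celf5 for the largest well-counted fall, and Mbnl2 for the rise. They lie at chr3:80985684-80985983, chr6:20563802-20564101, chr7:8876335-8876634 and chr15:103791938-103792237, all on the plus strand of GRCr8.
Hnrnpa3: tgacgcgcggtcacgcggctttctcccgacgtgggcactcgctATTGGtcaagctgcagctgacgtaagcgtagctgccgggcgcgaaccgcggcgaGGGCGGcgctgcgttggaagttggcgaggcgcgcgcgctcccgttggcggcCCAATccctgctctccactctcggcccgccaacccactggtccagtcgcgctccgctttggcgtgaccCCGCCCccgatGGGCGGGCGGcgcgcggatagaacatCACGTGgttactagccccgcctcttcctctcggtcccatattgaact
Srsf7: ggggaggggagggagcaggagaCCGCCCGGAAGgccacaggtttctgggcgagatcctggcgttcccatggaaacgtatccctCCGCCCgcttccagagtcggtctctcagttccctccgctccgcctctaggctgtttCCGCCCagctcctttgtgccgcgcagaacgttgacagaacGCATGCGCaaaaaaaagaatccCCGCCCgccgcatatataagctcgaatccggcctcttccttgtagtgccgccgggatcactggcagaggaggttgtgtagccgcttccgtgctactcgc
Celf5: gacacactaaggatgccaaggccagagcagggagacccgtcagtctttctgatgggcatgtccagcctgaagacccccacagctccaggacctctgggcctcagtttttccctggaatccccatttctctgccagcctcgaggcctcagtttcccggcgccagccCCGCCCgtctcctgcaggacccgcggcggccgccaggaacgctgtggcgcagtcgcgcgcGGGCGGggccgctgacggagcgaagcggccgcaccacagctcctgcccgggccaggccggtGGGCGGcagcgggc
Mbnl2: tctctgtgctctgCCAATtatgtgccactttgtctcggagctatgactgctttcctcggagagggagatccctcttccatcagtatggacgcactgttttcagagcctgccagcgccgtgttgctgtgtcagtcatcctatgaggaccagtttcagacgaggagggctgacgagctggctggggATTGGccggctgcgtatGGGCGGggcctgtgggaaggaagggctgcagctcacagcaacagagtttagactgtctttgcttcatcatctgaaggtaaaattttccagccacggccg
Celf5 holds GC boxes alone among the motifs searched, whereas Mbnl2 holds 2 CCAAT boxes and 1 GC box.

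In OPCs, cells given anti-miR-145 were compared with cells given anti-miR-ctl, which asks what reducing miR-145-5p does before differentiation. Calls among the splicing genes were few and fell mostly on the CELF and RBFOX regulators. Of the 64 genes, 8 were called higher and 3 lower (edgeR, adjusted p under 0.05), where 12.1% of all 15496 genes were called higher and 16.0% lower. The median log2 fold change was 0.05 over the splicing genes and 0.00 over all genes, and the summed level was 12660 ± 127 CPM (SD, 2 libraries) with the inhibitor and 12480 ± 488 without it. The share called higher is close to that of all genes, and whether the share called lower differs was not tested. Of the 11 called genes 7 were CELF, RBFOX or PTBP genes. Scaled by library totals alone, the median of the 64 genes was -0.02 and that of all genes -0.07, so no common direction can be given.

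The 5 regulators called higher were Celf3, Celf5, Celf6, Rbfox2 and Rbfox3, most of them known as neural genes. Celf6 had 12.3 and 11.1 CPM with the inhibitor and 4.48 and 4.32 CPM without it, a 2.64-fold rise (log2 1.40 ± 0.13, adjusted p = 0.000402). Celf3 had 75.2 and 72.6 CPM against 45.8 and 44.4 CPM (log2 0.70 ± 0.08, adjusted p = 0.00111). Celf5 had 51.2 and 55.1 CPM against 35.6 and 32.5 CPM (log2 0.63 ± 0.09, adjusted p = 0.00289). In each of these genes the replicates lay close together and the groups were well apart. Rbfox3 had 10.7 and 9.77 CPM against 5.66 and 5.36 CPM (log2 0.88 ± 0.13, adjusted p = 0.00287). Rbfox2 had 29.9 and 36.0 CPM against 26.1 and 21.5 CPM (log2 0.46 ± 0.13, adjusted p = 0.0401). Its log2 fold change was 0.30 without OPC anti-miR-ctl replicate 2. The call ended in edgeR fits of all 5 groups (adjusted p = 0.0581) and with a filter of 10 counts (adjusted p = 0.0625). Rbfox1 was at 17.8 and 19.7 CPM against 17.3 and 16.4 CPM and was not called.

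Celf4, the other mostly neural CELF gene, went the opposite way. It had 2.19 and 1.86 CPM with the inhibitor and 4.27 and 4.32 CPM without it (log2 -1.10 ± 0.19, adjusted p = 0.00562), on 87 and 81 counts against 185 and 158. The call of Celf4 was lost in an edgeR fit of all 5 groups together (log2 -1.085, adjusted p = 0.113). Ptbp3 had 27.8 and 39.8 CPM against 54.8 and 49.4 CPM (log2 -0.64 ± 0.16, adjusted p = 0.0252), with a wide gap between the 2 inhibitor libraries, and was not called without OPC anti-miR-ctl replicate 1 (adjusted p = 0.0573). Celf2 showed the same gap, at 41.1 and 60.8 CPM with the inhibitor against 66.3 and 61.8 CPM, and was not called. Ptbp1 was at 276 and 275 CPM against 233 and 234 CPM (log2 0.22 ± 0.08, adjusted p = 0.0712), with the groups apart, and it passed the threshold when either inhibitor library was left out. Celf1, Mbnl1, Mbnl2 and Ptbp2 overlapped between the groups.

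Neuron markers went both ways beside the neural CELF genes. Of 9 markers, 4 (Tubb3, Nefl, Nefm and Gad2) were called higher and 0 lower, while Syt1 (log2 -0.29 ± 0.11, adjusted p = 0.092), Stmn2 (-0.34 ± 0.13, adjusted p = 0.0981) and Syp (-0.11 ± 0.09, adjusted p = 0.4) lay lower in both inhibitor libraries without a call. Tubb3 had 65.1 and 59.3 CPM with the inhibitor and 27.8 and 26.7 CPM without it, and Nefl had 14.9 and 11.2 CPM against 3.09 and 3.50 CPM. The summed level of the 9 was 648 and 791 CPM against 654 and 626 CPM, most of it from Map2. The part of neuronal RNA in the CELF and RBFOX differences was not tested.

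The remaining 4 calls were small. The U1 snRNP gene Snrpa had 67.6 and 58.8 CPM with the inhibitor against 48.4 and 50.0 CPM (log2 0.35 ± 0.10, adjusted p = 0.0425). Snrpn had 46.8 and 50.8 CPM against 37.0 and 37.9 CPM (log2 0.37 ± 0.09, adjusted p = 0.0203). Sf3b5 had 83.8 and 67.0 CPM against 51.6 and 54.2 CPM (log2 0.50 ± 0.13, adjusted p = 0.0256). Hnrnpdl had 219 and 223 CPM against 259 and 279 CPM (log2 -0.30 ± 0.08, adjusted p = 0.0344). All 4 were lost when either OPC anti-miR-ctl library was left out, with adjusted p between 0.0685 and 0.298. The snRNP family as a whole had 12 of 14 genes with a positive log2 fold change (median 0.13) and a sum 12.3% higher, but its sums were 1100 and 964 CPM with the inhibitor against 879 and 959 CPM, so the groups lay barely apart. The SR family had 0 genes called by edgeR and 0 by DESeq2, with 1 of 11 higher and 1 lower at an unadjusted p under 0.05, where 19.2% of all genes were higher and 21.6% lower, so neither share is above the background.

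Related genes outside the 64 included calls both ways, where 12.1% of all genes were called higher and 16.0% lower. Of 63 core spliceosome genes 4 were called higher and 3 lower, among them Lsm7 (log2 0.63 ± 0.14) and Lsm3 (-0.64 ± 0.12). Of 51 splicing regulators 3 were called higher and 7 lower. Khdrbs3 had the smallest p (log2 -1.04 ± 0.08, adjusted p = 0.000233) and its relative Khdrbs2 rose (log2 1.01 ± 0.17, adjusted p = 0.00572). Of 43 other RNA-binding regulators 7 were called each way. None of these counts stands clearly above the shares over all genes. Cell cycle genes (16 of 16, median log2 -1.31) and interferon response genes (11 of 11, median -3.20) were called lower in the same comparison. These differences came together with the inhibitor and cannot be told apart from it. Their part in the splicing gene values was not tested. The summed level of the splicing genes differed by 1.48%, with families moving both ways (snRNP proteins 12.3%, SR proteins -1.17%). With any 1 library left out, the median log2 fold change of the 64 genes ran from 0.004 to 0.08, and the number called varied.

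In OLs, the miR-145 mimic was compared with miR-ctl, the comparison for which the authors deposited their own table. No splicing gene was called (0 of 64, where 0.0% of 15461 genes were called by edgeR), and DESeq2 also called 0 of the 64 while calling 649 genes in all. An alternative edgeR fit with the replicate number as a block called 4 of the 64 and 2272 genes in all. The closing section names these 4 genes. At an unadjusted p under 0.05, 9 of the 64 genes were lower and 2 higher, beside 4.38% and 8.99% of all genes. The direction was common to most: 55 of 64 had a negative log2 fold change, against 51.6% of all genes. The median was -0.17 against -0.01 over all genes. The groups lay apart with miR-145 below in 33 genes and above in 5, where 24.4% and 22.9% of all genes did so. The summed level was 7434 ± 134 CPM (SD, 2 libraries) with the mimic and 8463 ± 369 with miR-ctl, a fall of 12.2%. The median depended on 1 library, being -0.11 without OL miR-ctl replicate 1, the OL library with the highest summed level.

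All 16 hnRNP genes had fold changes below 0, 13 of them with groups apart. Hnrnph1 had 136 CPM in both miR-145 libraries and 197 and 174 CPM in the miR-ctl libraries (log2 -0.44 ± 0.11, unadjusted p = 0.0101, adjusted p = 0.218). Hnrnpdl had 128 and 138 CPM against 166 and 162 CPM (log2 -0.30 ± 0.11, adjusted p = 0.343). Hnrnpr had 73.4 and 71.5 CPM against 93.4 and 84.1 CPM (log2 -0.29 ± 0.11, adjusted p = 0.361). These differences are larger than the gap between the replicates but did not pass the adjustment over all genes. Of the SR family 10 of 11 had negative fold changes (median -0.23), of SF3a and SF3b 8 of 9 (median -0.14), and of the snRNP proteins 12 of 14 (median -0.14).

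Sf3a1 had 100 and 94.8 CPM with the mimic and 128 and 114 CPM with miR-ctl (log2 -0.30 ± 0.11, adjusted p = 0.351). Sf3a3 had 57.9 and 58.2 CPM against 71.0 and 70.0 CPM (log2 -0.28 ± 0.10, adjusted p = 0.347). Srsf11 had 93.4 and 98.6 CPM against 115 and 119 CPM (log2 -0.28 ± 0.10, adjusted p = 0.351). Among the Sm genes Snrpe, Snrpb and Snrpg (ENSRNOG00000032232) gave log2 values of -0.29, -0.26 and -0.45 with adjusted p from 0.361 to 0.370.

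Outside the 64 genes, 55 of 63 core spliceosome genes (median -0.10), 45 of 50 other splicing regulators (median -0.17) and 26 of 42 other RNA-binding regulators (median -0.10) were below 0 on the log2 scale, none of them called. Over all genes 51.6% were below 0, and the 61.9% of the other RNA-binding regulators lay nearest to that share.

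The regulators were mixed, with 9 of 14 below 0. Celf2 had the smallest p of the 64 genes, at 43.9 and 44.7 CPM with the mimic against 34.0 and 28.4 CPM (log2 0.51 ± 0.13, unadjusted p = 0.00978, adjusted p = 0.216). Celf3 was at 14.9 and 17.7 CPM against 14.0 and 11.1 CPM, and Celf5 at 2.56 and 2.73 CPM against 4.84 and 3.43 CPM, with adjusted p of 0.433 and 0.399. Celf6 stayed at 8 and 11 counts against 8 and 3. Srsf12 had 1.29 and 1.39 CPM against 0.577 and 0.399 CPM (log2 1.45 ± 0.39, adjusted p = 0.223), from 45 and 55 counts against 23 and 13. For Celf1, Celf4, Ptbp2, Ptbp3, Rbfox1 and Rbfox2 the sign changed when 1 library was left out, so no direction is given. Qki was at 390 and 431 CPM against 547 and 519 CPM (log2 -0.37 ± 0.12, unadjusted p = 0.0272, adjusted p = 0.313).

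Markers of other cells differed in these libraries too. All 8 astrocyte markers had positive fold changes (median log2 0.88), 7 at an unadjusted p under 0.05, and their summed level was 14410 and 9817 CPM with the mimic against 6869 and 5864 CPM with miR-ctl. The 4 fibroblast and mural markers tested were all positive, while microglia markers (11 of 12 positive, median 0.60) overlapped in most genes. The part of these cells in the lower splicing gene levels was not tested.

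**Figure D5:**
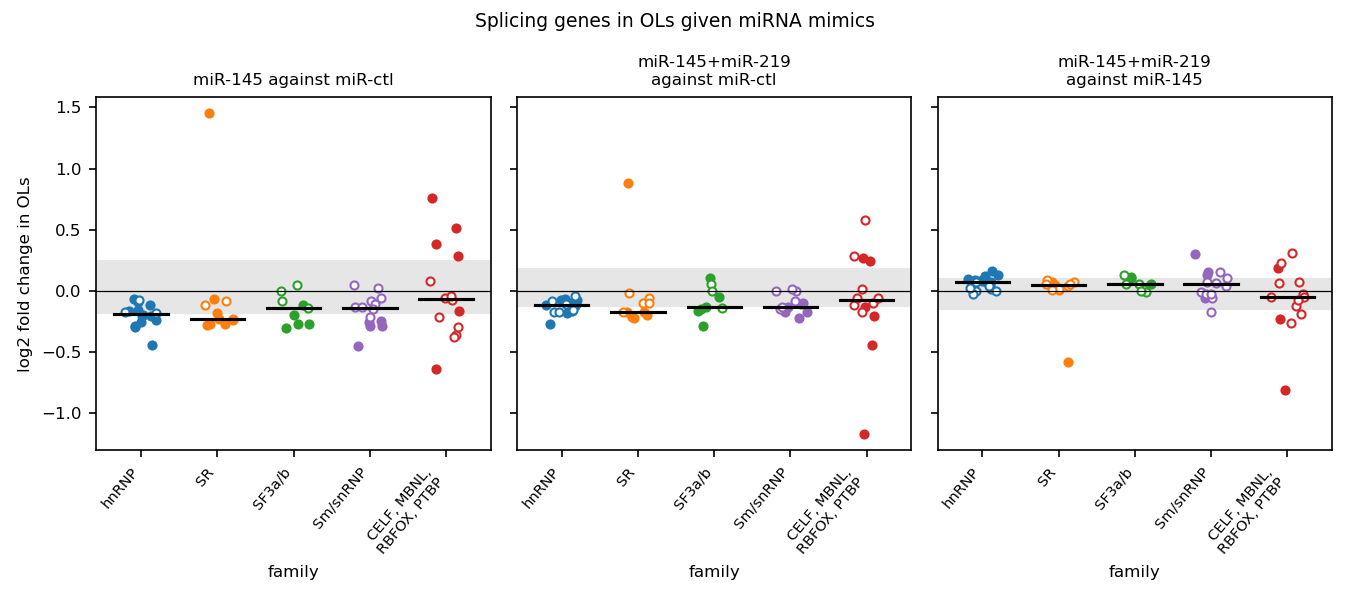
Log2 fold changes of the 64 splicing genes in OLs by family for the 3 comparisons among mimic groups, with filled points where the libraries of the 2 groups do not overlap, black lines at the family medians and grey bands between the quartiles of all genes tested. In the left and middle panels the family medians lie below 0, and in the right panel 4 of the 5 lie slightly above 0. None of these differences was called in the fits without a replicate block.

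OLs given both mimics were compared with the same miR-ctl libraries, so the 2 results share their controls. No splicing gene was called (0 of 64, where 0.0% of 15436 genes were called by edgeR), and DESeq2 called 0 of the 64 while calling 106 genes in all. At an unadjusted p under 0.05, 1 gene was lower, Sf3a1 (100.2 and 97.7 CPM against 128 and 114, log2 -0.29 ± 0.11, adjusted p = 0.801), and 0 were higher, beside 2.23% and 3.96% of all genes. Again 53 of 64 fold changes were negative, against 49.7% of all genes (median -0.12 against 0.00 over all genes). In 32 genes both libraries lay below miR-ctl and in 4 above, where 19.5% and 17.2% of all genes did so. The summed level fell by 8.32%, to 7758 ± 125 CPM (SD, 2 libraries). Without OL miR-ctl replicate 1 the median was -0.06. The hnRNP genes were again below 0 in 16 of 16. The 14 regulators ran from -1.17 to 0.58 on the log2 scale. Hnrnph1 stood at 156 and 151 CPM (log2 -0.27 ± 0.11, adjusted p = 0.814) and Srsf6 at 137 and 145.4 CPM against 169 and 162 CPM (log2 -0.22 ± 0.10, adjusted p = 0.814). Mbnl1 had 21.6 and 22.6 CPM against 18.6 and 18.8 CPM (log2 0.25 ± 0.12, adjusted p = 0.814). Celf4 was at 22 and 15 counts against 62 and 20, too few for its log2 of -1.17 ± 0.56 to be told from 0. The 8 astrocyte markers were positive here as well (median 0.58).

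The third comparison of mimics asks what miR-219 added to miR-145. It reuses the miR-145 libraries of the first comparison and the libraries with both mimics of the second. Its signs are therefore not independent of those results. With both mimics against miR-145 alone, 0 of 64 genes were called (0.0% of 15501 genes by edgeR), and DESeq2 called 0 of the 64 while calling 9 genes in all. At an unadjusted p under 0.05, 0 were higher and 0 lower, beside 0.329% and 1.14% of all genes. Of the 64 fold changes 44 were positive and 20 negative with a median of 0.05, where 50.7% of all genes were negative. The groups lay apart in 18 genes above and 4 below, where 13.2% and 11.6% of all genes did so. The 14 regulators ran from -0.81 (Celf4) to 0.31 on the log2 scale. Hnrnph1 had 156 and 151 CPM with both mimics and 136 CPM in each miR-145 library (log2 0.16 ± 0.10, unadjusted p = 0.149), and Snrpg (ENSRNOG00000032232) had 24.3 and 23.2 CPM against 22.1 and 16.2 CPM (log2 0.30 ± 0.18, unadjusted p = 0.144). The median was 0.01 without OL miR-145 replicate 2. Marker genes of other cells also shifted without a call. All 8 astrocyte markers (median log2 -0.29) and all 12 microglia markers (median -0.48) had negative fold changes, and Mbp was at 8047 and 15530 CPM with both mimics against 6215 and 10670 CPM with miR-145. The part of these cells in the splicing gene values was not tested.

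The mimic in OLs and the inhibitor in OPCs use no library in common. Of the 64 splicing genes 33 had opposite signs in the miR-145 mimic and anti-miR-145 comparisons (51.6%), and of 14852 genes tested in both, 52.0% had. Celf5 was one of those with opposite signs, at a log2 of -0.64 ± 0.28 with the mimic and 0.63 ± 0.09 with the inhibitor, although its mimic value was not called. Celf3, by contrast, had positive values in both (0.38 ± 0.18 and 0.70 ± 0.08), and Hnrnpdl had log2 values of -0.30 in both.

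Some values need care because similar genes share reads. Of the 63 symbols, 26 have at least 1 pseudogene in RefSeq, 17 of them hnRNP or snRNP genes, and the counting may have moved reads between copies. Hnrnpa0 and Hnrnph3 are named provisionally in the table and so lie outside the symbol rule. By gene ID, Hnrnpa0 had 163 and 148 CPM in control OPCs, 224 and 209 CPM in OPCs given anti-miR-145 (log2 0.46 ± 0.09, adjusted p = 0.0101), and 97.3 and 87.8 CPM in control OLs (log2 -0.76 ± 0.09, adjusted p = 0.00184 against control OPCs). Hnrnph3 was lower in OPCs given anti-miR-145 (log2 -0.32 ± 0.10, adjusted p = 0.0456) and did not differ detectably between the control groups (log2 -0.14 ± 0.10, adjusted p = 0.27).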

How the data were processed

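RNA from 10 libraries was sequenced as stranded polyA libraries. The authors quantified reads with Salmon 0.12.0 on a GENCODE annotation of Rnor6.0 and summed transcripts to genes with tximport. The deposited values used are these estimated counts, not normalised, which were rounded to whole counts here. The columns of the authors' own DESeq2 comparison (fold changes and p-values) were not used. Each comparison was a separate fit of the 4 libraries concerned by edgeR 4.0.16 in R 4.3.3 (TMM normalisation, quasi-likelihood F test, 2-sided), over genes reaching 5 counts in 2 or more libraries, and p-values were adjusted by the Benjamini-Hochberg method over all genes tested. A standard error is the log2 fold change divided by the square root of F. The fits were tested on simulated counts. DESeq2 1.42.0 and the other settings in the closing section were alternatives. Every call was named, up to the 25 with the smallest p, or the 10 with the smallest p where fewer were called, and every CELF, MBNL, RBFOX and PTBP gene was considered in each comparison. Further genes were named to describe their families, after their values were seen. The members, families and lists were chosen with earlier results of these data known. Library totals of 33505668 to 42684176 counts limit precision mainly for the few genes with low counts.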

Additional observations from a re-analysis of the deposited data

How the results depend on the processing

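With no library left out, counts of splicing genes called stayed within 1.5 times of the value in the report except as follows. In OLs given miR-145 against miR-ctl, a replicate block called 4 genes (of 2272 genes in all) in place of 0, namely Celf2 (log2 0.52, adjusted p = 0.00332) and Srsf12 (1.46, adjusted p = 0.0153) higher, and Hnrnph1 (-0.44, adjusted p = 0.00605) and Snrpg (ENSRNOG00000032232, -0.47, adjusted p = 0.023) lower. Same-numbered libraries deviated together in all 3 comparisons of OLs (r = 0.396, 0.457 and 0.622), and in each OL group replicate 2 had more Mbp and a lower astrocyte marker sum than replicate 1. With only 2 numbers and no source that ties them to a culture, the block was kept as an alternative. The block gave 0, 0, 9 and 51 calls in the other 4 comparisons, of 132, 184, 3963 and 8534 genes in all. In OPCs, where 11 were called (4348 genes in all), fitting all 5 groups together called 5 (2553 in all). That fit ended the calls of Celf4, Ptbp3, Hnrnpdl, Rbfox2, Snrpa and Snrpn. A fold change of at least 1.5 left 6 (2597 in all). A crossed replicate block, tried after seeing that the numbers deviated in opposite directions (r = -0.141), called 18 (5536 genes in all). In control OLs against control OPCs, where 55 were called (9042 genes in all), a fold change of at least 1.5 left 35 (6725 in all). Leaving out 1 library at a time gave 0 to 0 calls in each comparison of OLs alone, 6 to 25 in OPCs and 34 to 59 between the stages. The causes were not tested, and dropping a library also leaves fewer residual degrees of freedom, the lone sample being assumed to vary like the other group.

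Values whose sign changed were all uncalled. In OPCs, library totals alone gave a median of -0.0223 for the splicing genes and a log2 of -0.0279 for Celf1, and the fit of all 5 groups gave 0.00524 for Mbnl2 and 0.000161 for Ptbp2. Library totals alone gave -0.00487 for Ptbp2 with both mimics against miR-ctl. Leaving out 1 library, the log2 fold changes under miR-145 against miR-ctl ran from -0.186 to 0.0312 for Celf1, -0.88 to 0.47 for Celf4, -0.223 to 0.0941 for Ptbp2, -0.492 to 0.0121 for Ptbp3, -0.21 to 0.40 for Rbfox1 and -0.150 to 0.0620 for Rbfox2. With both mimics against miR-ctl they ran from -0.200 to 0.0165 for Celf1, -0.22 to 0.10 for Mbnl2, -0.17 to 0.17 for Ptbp2, -0.50 to 0.15 for Rbfox1 and -0.34 to 0.25 for Rbfox3. With both mimics against miR-145 they ran from -0.0968 to 0.0423 for Celf1, -0.248 to 0.0206 for Celf3, -0.25 to 0.20 for Mbnl1, -0.137 to 0.0361 for Ptbp1, -0.13 to 0.23 for Ptbp2, -0.16 to 0.36 for Ptbp3 and -0.596 to 0.0192 for Rbfox1. In OPCs they ran from -0.10 to 0.17 for Celf1, -0.250 to 0.0597 for Mbnl1, -0.16 to 0.12 for Mbnl2 and -0.14 to 0.10 for Ptbp2. Depth limits Celf6, Celf4 and Srsf12 in OLs, at 3 to 62 counts.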
